A study of Danio rerio with 16 samples.

Results

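Blood vessels are built by endothelial cells, which sense vascular endothelial growth factor (VEGF) through receptor tyrosine kinases, hold together through vascular cadherin, and keep their identity through transcription factors of the ETS family. In some vessel beds the endothelial surface is perforated by small pores and vesicles that are closed by a diaphragm built from plasmalemma vesicle associated protein (Plvap). In zebrafish embryos, many of these genes switch on before circulation starts, and a number of them become restricted to arteries, veins, lymphatics, or particular organs as the network matures.

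The levels of 10 such genes, of the 32520 in the count table, were described in whole zebrafish embryos. They comprised the VEGF receptors kdrl, kdr, flt1, and flt4, the junction gene cdh5, the receptor gene tie1, the transcription factor gene fli1a, the secreted factor gene egfl7, and the diaphragm genes plvapb and plvapa. They were chosen by name as blood vessel identity genes, and plvapb was chosen because its genotype difference pointed in opposite directions at the 2 stages. Its genotype differences, and the difference between them, are therefore given as values, and no test of them is used. All 10 genes passed the filter on low counts and were among the 23555 genes tested. plvapa passed it through its 2 dpf libraries, as it did not pass with the 1 dpf libraries alone.

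Each library was made from the RNA of 10 pooled whole embryos, either wild-type (WT, fbn2b +/+) embryos or embryos homozygous for a frameshift mutation in fbn2b, the fibrillin gene that the study calls fbn3. Embryos were collected at 1 and 2 days postfertilization (dpf), which gave 4 WT and 3 fbn2b-/- libraries at 1 dpf and 3 WT and 5 fbn2b-/- libraries at 2 dpf. The mutation was made with Cas9 in eggs of fish carrying the Tg(kdrl:EGFP) or the Tg(mpx:GFP) reporter, in which a vessel or a neutrophil promoter drives a green fluorescent protein, and the mutant lines were then backcrossed to WT fish of the AB background. Whether the sequenced embryos carried either reporter, or an allele other than the fbn2b mutation, is not given in the sources used here. The label for tissue was the whole embryo, and endothelial, blood, neural crest, and mural cell genes were all detected, so the level of a vessel gene is its share of the RNA of all tissues. In such samples, fewer endothelial cells and less RNA per endothelial cell cannot be told apart.

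Total counts lay between 41473603 and 179887580 per library. fbn2b itself separated the genotypes, with 103 to 337 counts scaled to a library size of 1000000 (CPM) in WT against 19.5 to 28.7 CPM in fbn2b-/- at 1 dpf, and 164 to 239 against 15.1 to 20.8 CPM at 2 dpf. The libraries also fell into 2 sets that follow neither genotype nor stage. The labels number the libraries without a break and name no batch. The cut between the sets was taken from earlier results of these data over all genes, in which lower and higher library numbers stood apart, so it is drawn from the data and not from the labels. Set A holds 9 libraries (2 WT and 3 fbn2b-/- at 1 dpf, 1 WT and 3 fbn2b-/- at 2 dpf) and set B holds 6 (2 WT at 1 dpf, 2 WT and 2 fbn2b-/- at 2 dpf). In a principal component analysis of the 23545 other genes, with the 10 genes left out, the second component (9.12% of the variance) separated the sets without overlap. The cut came from the same libraries, so this is a description and not a separate check. What the sets stand for is not known, and fbn2b-/- embryos at 1 dpf were in set A only, so at 1 dpf genotype and set are partly confounded. CPM values are not divided by gene length, so levels were compared between libraries and not between genes.

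The first question was how the genes changed between the stages. From 1 to 2 dpf in WT, plvapa, the less abundant of the Plvap genes, rose, and kdr, flt4, and egfl7 fell by less than the fold threshold. In fbn2b-/- embryos the same 4 genes passed the test in the same directions. The levels of cdh5, fli1a, tie1, and flt1 did not pass the test in either genotype, and neither did that of kdrl. The SD of log2 CPM within groups was higher for kdrl than for any other of the 10 genes. With both thresholds (false discovery rate [FDR] under 0.05 and absolute log2 fold change [log2FC] above 1, edgeR), 1 of the 9 genes other than plvapb was called in each genotype, in both cases plvapa, which was higher. Since plvapa passed the filter on low counts through the 2 dpf libraries, where it was high, nothing is read from its call. Of all genes tested, 27.1% were called in WT (17.7% higher) and 27.7% in fbn2b-/- (19.3% higher). With plvapb the counts were 1 and 2 of 10. By FDR alone, 1 of the 9 genes was higher and 3 were lower in each genotype. By that rule 54.6% of all genes passed in WT (27.0% higher, 27.6% lower) and 56.3% in fbn2b-/- (29.2% higher, 27.0% lower). The 1 higher gene was plvapa in both genotypes, so nothing is read from these counts. The median log2FC of the 10 genes was -0.13 in WT and -0.08 in fbn2b-/-, beside -0.04 and 0.00 over all genes tested.

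**Figure D1:**
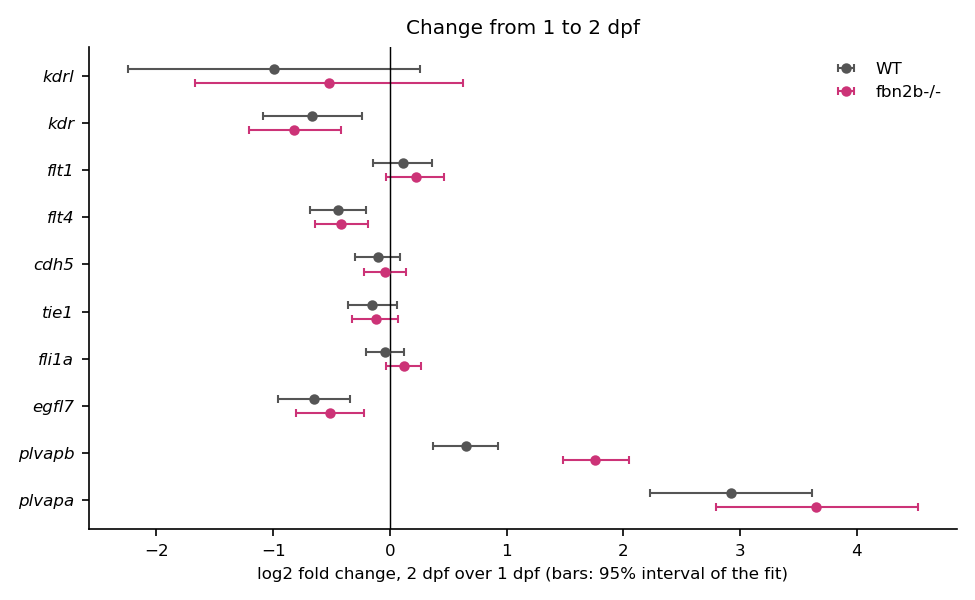
Log2 fold change from 1 to 2 dpf (x axis) of the 10 genes (y axis) in WT and in fbn2b-/- embryos, from the edgeR fit over 15 libraries, with bars for the 95% interval. The points of plvapa lie right of 2 and those of kdr, flt4, and egfl7 left of 0 in both genotypes, and the intervals of kdrl are the widest of the VEGF receptors.

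kdr encodes a receptor of the type that carries most VEGF signaling in the endothelium, and it is the closer zebrafish counterpart of mammalian KDR by position in the genome. In WT its level was 16.2, 19, 18.1, and 27.9 CPM at 1 dpf and 10.9, 13.6, and 13.8 CPM at 2 dpf. In fbn2b-/- it was 15.9, 29.7, and 22.6 CPM at 1 dpf and 13.9, 13.4, 13.5, 11.4, and 12.3 CPM at 2 dpf. All libraries at 2 dpf lay below all libraries at 1 dpf in both genotypes, as did those of flt4 and egfl7, with a spread that was wide at 1 dpf and narrow at 2 dpf. Of all genes, 24% were lower at 2 dpf without overlap in WT and 27.3% in fbn2b-/-. The log2FC was -0.67 (SE 0.20, FDR 0.0103, edgeR) in WT and -0.82 (SE 0.18, FDR 0.00143) in fbn2b-/-, or 1.59-fold and 1.76-fold lower at 2 dpf. Within set A the difference was -0.69 in both genotypes, and within set B, which allows only WT, it was -0.71.

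flt4 encodes the receptor for Vegfc and is known for its role in veins and lymphatic vessels. In WT its level was 31.8, 29.3, 23.4, and 26.5 CPM at 1 dpf and 19.9, 18.5, and 23 CPM at 2 dpf. In the mutants it was 26.0, 30.5, and 27.8 CPM at 1 dpf and 19.6, 21.4, 21.1, 21.5, and 21.6 CPM at 2 dpf. In WT the stages came close, since the highest library at 2 dpf reached 23 CPM and the lowest at 1 dpf 23.4 CPM, whereas in fbn2b-/- the gap was 1.2-fold. The log2FC was -0.44 (SE 0.11, FDR 0.00368, edgeR) in WT and -0.42 (SE 0.11, FDR 0.0033) in fbn2b-/-.

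egfl7 encodes a small protein that endothelial cells secrete into the matrix around them and that is needed for vessel tubes to form in zebrafish. In WT its level was 14.5, 11.8, 9.64, and 10.1 CPM at 1 dpf and 7.83, 6.55, and 7.61 CPM at 2 dpf. The mutant libraries had 9.93, 13.3, and 12.2 CPM at 1 dpf and 8.31, 7.62, 8.33, 8.84, and 8.40 CPM at 2 dpf. The lowest library at 1 dpf was 1.23-fold above the highest at 2 dpf in WT and 1.12-fold in fbn2b-/-. The log2FC was -0.65 (SE 0.15, FDR 0.00148, edgeR) in WT and -0.51 (SE 0.14, FDR 0.0048) in fbn2b-/-. The falls of kdr, flt4, and egfl7 passed the FDR threshold in both genotypes in 25 of 25 alternative settings. Of these settings, 15 leave out 1 library, which in some of them is not part of the comparison. The highest FDR over the settings in WT was 0.0471 for kdr, 0.046 for flt4, and 0.0171 for egfl7.

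flt1 encodes a VEGF receptor that binds the ligand tightly with weak signaling, and a soluble form acts as a trap for VEGF. In WT its mean level at 1 dpf was 7.40 ± 0.345 CPM (SD, n = 4), and at 2 dpf it was 7.98 ± 0.285 CPM (SD, n = 3). In fbn2b-/- it was 6.30 ± 0.667 CPM (SD, n = 3) and 7.33 ± 0.697 CPM (SD, n = 5). The stages overlapped in both genotypes, and the log2FC of 0.11 in WT (95% interval -0.14 to 0.36) and 0.22 in fbn2b-/- (-0.03 to 0.46) did not pass the test. Thus flt1 gave positive values where kdr and flt4 fell, and the counts do not separate the membrane form of flt1 from the soluble one.

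cdh5, which encodes vascular endothelial cadherin, tie1, an orphan receptor that acts with the angiopoietin receptor Tek, and fli1a, an ETS factor that marks endothelial cells from early stages, varied little between libraries. The SD of log2 CPM within groups was 0.05 for fli1a, 0.10 for cdh5, and 0.11 for tie1, beside a median of 0.27 over all genes tested. fli1a lay between 52.4 and 61.1 CPM in all 15 libraries. In WT the log2FC from 1 to 2 dpf was -0.04 for fli1a (95% interval -0.20 to 0.12), -0.10 for cdh5 (-0.30 to 0.09), and -0.15 for tie1 (-0.36 to 0.06). In fbn2b-/- it was 0.12 for fli1a (-0.03 to 0.27), -0.04 for cdh5 (-0.22 to 0.14), and -0.12 for tie1 (-0.32 to 0.07). Each interval contained 0, and none reached the fold threshold in either direction.

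Within groups the level of cdh5 also differed between the sets, which was not particular to cdh5. In WT at 1 dpf its level was 48.6 and 49.3 CPM in set A and 57.1 and 56.6 CPM in set B. In fbn2b-/- at 2 dpf it was 49.7, 52.0, and 53.7 CPM in set A and 58.2 and 58.5 CPM in set B. In WT at 2 dpf the single set A library gave 49.6 CPM beside 49.5 and 48.6 CPM in set B, so the higher level of set B was seen in 2 of 3 groups. As a mean log2 difference of set A minus set B, the value of cdh5 in WT at 1 dpf was -0.22. In the same group it was 0.41 for egfl7, -0.36 for kdr, 0.29 for flt4, and 0.25 for plvapb. It was -0.02 for fli1a, -0.11 for flt1, and -0.12 for tie1. The genes most like cdh5 in level over the 15 libraries were mbd1b (0.07), kif5ba (0.08), and mbtps2 (0.08). The values in brackets are root mean square differences of centered log2 CPM. Each had group means that varied little between stages and genotypes, which follows from how they were picked.

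**Figure D2:**
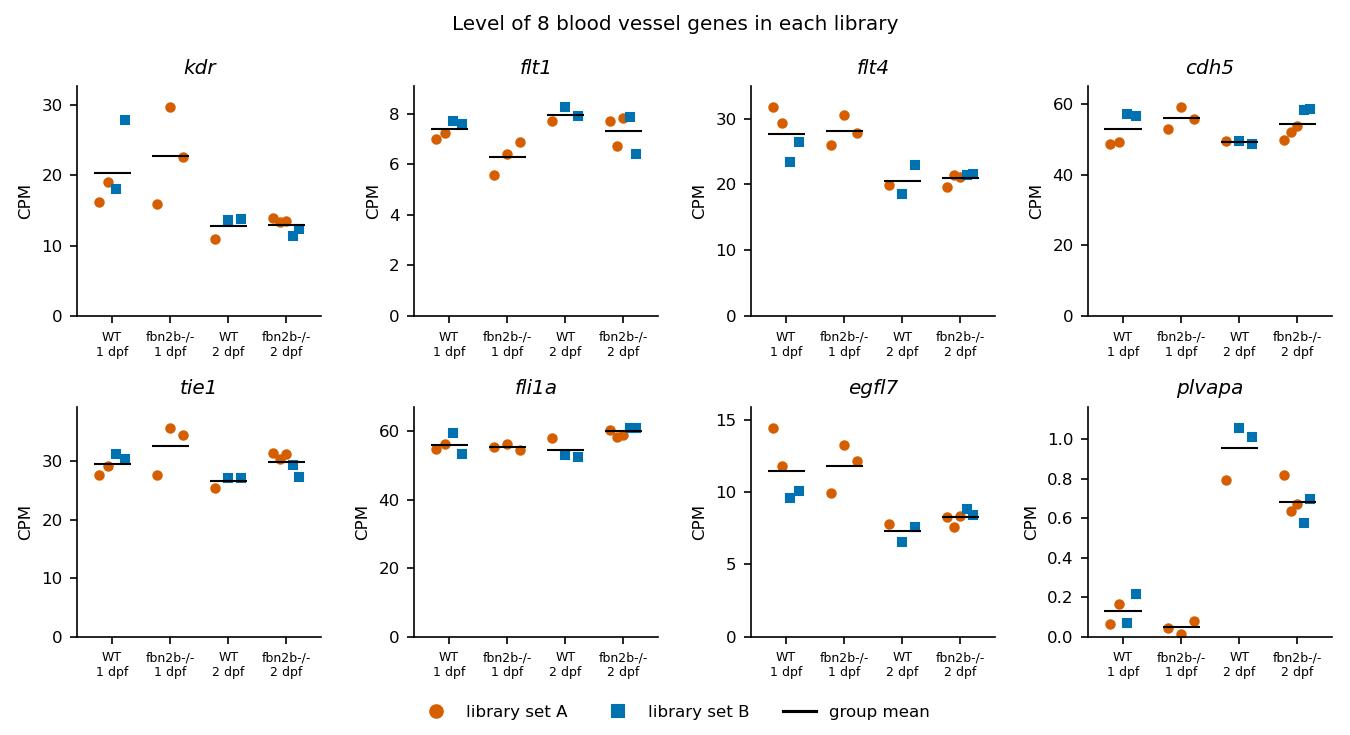
Level in CPM (y axes, from 0) of 8 of the genes in each of the 15 libraries, by genotype and stage, with circles for set A, squares for set B, and a line at each group mean. The libraries of kdr, flt4, and egfl7 at 2 dpf lie below those at 1 dpf within each genotype, those of fli1a lie between 52.4 and 61.1 CPM, and those of plvapa reach at most 0.218 CPM at 1 dpf.

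kdrl encodes the receptor that is the most used endothelial marker in zebrafish, with a promoter that drives many vessel reporter lines. Its level did not follow genotype or stage. In WT it was 165, 256, 45.5, and 49.9 CPM at 1 dpf and 98.4, 47.4, and 49.3 CPM at 2 dpf. In fbn2b-/- it was 104, 216, and 92.8 CPM at 1 dpf and 115, 142, 134, 44.9, and 44.3 CPM at 2 dpf. The 6 libraries of set B lay between 44.3 and 49.9 CPM whatever their genotype and stage, and the 9 of set A lay between 92.8 and 256 CPM, without overlap. The mean log2 difference of set A minus set B was 2.11 in WT at 1 dpf, 1.02 in WT at 2 dpf, and 1.54 in fbn2b-/- at 2 dpf. The cut between the sets was drawn from the same libraries, with kdrl among the genes in view, and kdrl was singled out after its values were seen. Its separation and its rank are therefore a description.

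No other of the 10 genes, and 0 of the 76 tested genes of the vessel pathways described further on, separated the sets in either direction. Over all 23555 genes, set A was above set B without overlap for 72 genes (0.306%) and below it for 155 (0.658%). Among the 10726 genes with a mean of at least 10 CPM, kdrl had the sixth highest mean log2 difference between the sets, at 1.56. The SD of its log2 CPM within groups was 0.91, against 0.05 to 0.50 in the other 9 genes, and 84 of those 10726 genes were at or above it. The other endothelial genes cdh5, tie1, fli1a, and egfl7 overlapped between the sets, as did kdr, flt1, and flt4. The cause of the split in kdrl was not tested.

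**Figure D3:**
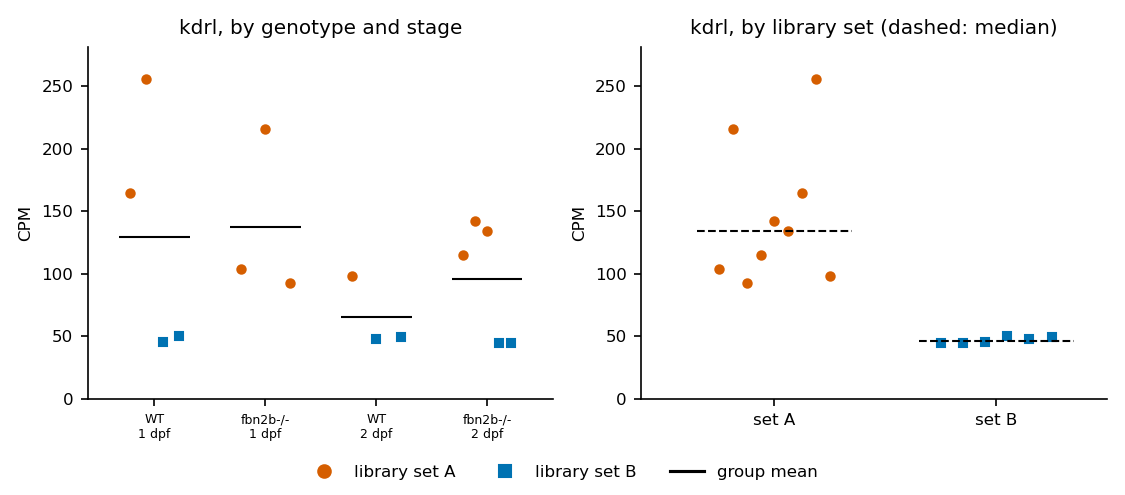
Level of kdrl in CPM (y axes, from 0) in each of the 15 libraries, by genotype and stage with a line at each group mean (left) and by library set with a dashed line at the median (right). The 6 set B libraries lie between 44.3 and 49.9 CPM and the 9 set A libraries between 92.8 and 256 CPM.

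The stage and genotype values of kdrl depended on this split. The log2FC from 1 to 2 dpf was -0.99 (SE 0.59, FDR 0.167, edgeR) in WT and -0.52 (SE 0.54, FDR 0.434) in fbn2b-/-. With the library set as a covariate it was -0.43 in WT and -0.04 in fbn2b-/-. Within set A the WT value was -1.06, from 2 libraries against 1, and within set B it was 0.02, from 2 against 2. The genotype values were 0.09 (SE 0.57) at 1 dpf and 0.56 (SE 0.56) at 2 dpf, and with the covariate they were -0.39 and 0.01.

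Ratios of receptors within a library do not depend on how libraries are scaled, and they were compared between the stages for kdr, flt1, and flt4 relative to kdrl. The mean log2 ratio of kdr to kdrl changed by 0.04 in WT and by -0.18 in fbn2b-/-. That of flt1 to kdrl changed by 0.80 and 0.81, and that of flt4 to kdrl by 0.25 and 0.18. None of the 6 passed an exact permutation test (2-sided, adjusted p between 0.926 and 0.943). Before adjustment, the smallest p the design allows is 0.0286 in WT and 0.0179 in fbn2b-/-. After adjustment over the 6, a single ratio at its smallest p could not have passed. The test could therefore hardly be passed with these numbers of libraries, and nothing is read from its result. The within-group SD of these ratios reached 1.45 on the log2 scale, and the values within a set differed from the pooled ones. In WT they were 0.37 in set A and -0.74 in set B for kdr to kdrl, 1.18 and 0.06 for flt1, and 0.44 and -0.29 for flt4. In the mutants, where only set A allows the comparison, they were -0.72, 0.22, and -0.46 in the same order.

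Plvap proteins form the diaphragms of fenestrae and of endothelial vesicles, and plvapb marks vessels of the fenestrated type in zebrafish. plvapa was close to the limit of detection at 1 dpf, with 3 to 12 reads per library in WT and 1 to 8 reads in fbn2b-/-. At 2 dpf it had 69 to 141 reads in WT and 46 to 106 reads in fbn2b-/-. Its level in WT was 0.0656, 0.164, 0.0692, and 0.218 CPM at 1 dpf and 0.795, 1.06, and 1.01 CPM at 2 dpf. All libraries at 2 dpf lay above all libraries at 1 dpf in both genotypes, with a ratio of 3.65 in WT and 7.24 in fbn2b-/- between the nearest values, and 25.7% and 29% of all genes were higher at 2 dpf without overlap. The log2FC was 2.92 (SE 0.33, FDR 1.63e-06, edgeR) in WT and 3.65 (SE 0.41, FDR 1.44e-06) in fbn2b-/-, and the gene passed the FDR threshold in 24 of the 24 alternative settings in which it was tested. These values are a description, since plvapa passed the filter on low counts through its 2 dpf libraries. The higher value in fbn2b-/- rests on few reads at 1 dpf, and the difference between the genotypes in this change was 0.73 (95% interval -0.67 to 2.12). That difference was 1.46 without fbn2b-/- replicate 3 at 1 dpf and 0.39 without replicate 2 of the same group.

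plvapb was the more abundant gene in reads, with 773 to 9781 per library. In WT its level was 25.3, 22.8, 21.9, and 18.7 CPM at 1 dpf and 30.5, 37.2, and 36.8 CPM at 2 dpf. The fbn2b-/- embryos had 18.3, 13.8, and 12.5 CPM at 1 dpf and 51.0, 46.5, 48.3, 53.3, and 53.3 CPM at 2 dpf. The fbn2b-/- libraries were thus the lowest at 1 dpf and the highest at 2 dpf. At 1 dpf the groups nearly touched, at 18.3 and 18.7 CPM, a ratio of 1.02 between the nearest values, and at 2 dpf the nearest values were 37.2 and 46.5 CPM, a ratio of 1.25.

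At 1 dpf WT embryos had a mean of 22.2 ± 2.74 CPM (SD, n = 4), against 14.9 ± 3.03 CPM (SD, n = 3) for the mutants. At 2 dpf the WT mean was 34.9 ± 3.74 CPM (SD, n = 3) and the mutant mean 50.5 ± 3.02 CPM (SD, n = 5). As a log2FC of fbn2b-/- over WT, this was -0.58 (SE 0.13) at 1 dpf and 0.53 (SE 0.13) at 2 dpf, a difference of 1.11 (SE 0.18) between the stages. From 1 to 2 dpf, plvapb was 1.57-fold higher in WT and 3.40-fold higher in fbn2b-/-. Within set A the genotype values were -0.71 at 1 dpf and 0.67 at 2 dpf, the latter with 1 WT library. Within set B the value at 2 dpf was 0.53. Leaving out each library in turn gave values from -0.75 to -0.47 at 1 dpf and from 0.45 to 0.58 at 2 dpf. The genotypes did not overlap at either stage, so the signs of all these values were fixed in advance. Nothing is read from their sameness.

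**Figure D4:**
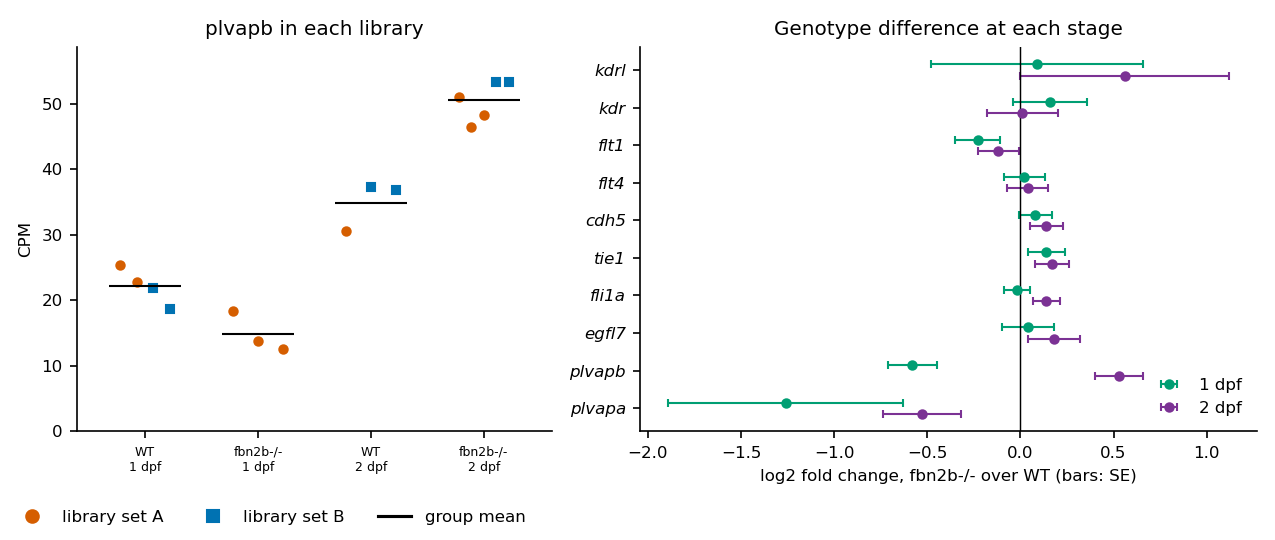
Left, level of plvapb in CPM (y axis, from 0) in each of the 15 libraries by genotype and stage, with circles for set A, squares for set B, and a line at each group mean. Right, log2 fold change of fbn2b-/- over WT (x axis, bars for the SE) of the 10 genes at 1 and 2 dpf, where plvapb lies at -0.58 and 0.53 and plvapa on the negative side at both stages.

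Groups without overlap in these opposite directions, with fbn2b-/- lower at 1 dpf and higher at 2 dpf, were found for 15 of the 23555 genes (0.0637%), and the mirror pattern for 4 (0.017%). Since plvapb was chosen for this pattern, nothing is read from its place among them. The genes whose levels over the 15 libraries were most like those of plvapb were tmem176 (root mean square difference of 0.15 in centered log2 CPM), the transcription factor gene klf12a (0.19), and gapdh (0.20), an enzyme of glycolysis. Their group means had the same order, with gapdh at 830 CPM in WT and 624 CPM in fbn2b-/- at 1 dpf and 1400 and 1670 CPM at 2 dpf. They were picked for likeness to plvapb in these same libraries, so nothing is read from the shared order.

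The levels of plvapb were also set against other endothelial genes of the same library. Relative to the mean of cdh5, fli1a, and tie1, its log2 level was -1.01 ± 0.24 (SD, n = 4) in WT and -1.66 ± 0.37 (SD, n = 3) in fbn2b-/- at 1 dpf, and -0.26 ± 0.17 (SD, n = 3) and 0.13 ± 0.07 (SD, n = 5) at 2 dpf. These 3 reference genes were picked after the spread of kdrl and the low level of plvapa had been seen. Relative to the mean of all 9 other genes, the values were 0.50, -0.03, 1.13, and 1.60 in the same order of groups. With both references the fbn2b-/- mean was below that of WT at 1 dpf and above it at 2 dpf. plvapb was chosen for these directions, and the second reference contains the 3 genes of the first. Nothing is therefore read from the sameness of the directions.

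Progress through development was measured on a scale set by 500 genes of the WT stage comparison, where the WT mean is 0 at 1 dpf and 1 at 2 dpf. At 1 dpf the fbn2b-/- libraries stood at 0.05, -0.07, and -0.09, and the WT libraries at 0.05, -0.01, 0.01, and -0.04. The fbn2b-/- library at 0.05 had the highest plvapb of its group, at 18.3 CPM, beside 25.3 CPM in the WT library at 0.05. At 2 dpf the fbn2b-/- libraries stood at 1.05, 0.96, 0.98, 0.91, and 0.85, with plvapb at 51.0, 46.5, 48.3, 53.3, and 53.3 CPM. The WT libraries stood at 0.93, 1.03, and 1.04, with plvapb at 30.5, 37.2, and 36.8 CPM. The part of developmental timing in the level of plvapb was not tested at either stage.

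The genotype differences of the other 9 genes were set beside those of all genes tested. At 1 dpf, 0 of the 10 genes were called, where 0.00425% of all genes tested were called, and at 2 dpf 0 were called beside 0.178% (edgeR, both thresholds). Of the 9 genes other than plvapb, 0 at 1 dpf and 1 at 2 dpf (plvapa) had an unadjusted p under 0.05, beside 7.34% and 10.4% of all genes. DESeq2 called 0 of these 9 at either stage, beside 49 of 23088 genes at 1 dpf and 102 of 22631 at 2 dpf. In the difference between the stages in genotype effect, 0 of these 9 were called by either tool. Over all genes, edgeR called 0.00425% and DESeq2 called 32 of 23088. An unadjusted p under 0.05 was found for 0 of these 9, beside 5.51% of all genes. The choice of plvapb used these comparisons, and nothing is read from the counts. In the 8 genes other than plvapb and plvapa, the log2FC lay between -0.23 (flt1) and 0.16 (kdr) at 1 dpf and between -0.12 (flt1) and 0.56 (kdrl) at 2 dpf.

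By overlap, fbn2b-/- libraries were below all WT libraries at 1 dpf for plvapb and flt1, where 2.99% of all genes were lower without overlap. The nearest values had a ratio of 1.02 for plvapb and 1.01 for flt1, so these groups were adjacent. At 2 dpf fbn2b-/- libraries were above all WT libraries for plvapb, cdh5, fli1a, and tie1, where 3.74% of all genes were higher without overlap. plvapb was chosen for these directions, so nothing is read from either count. For cdh5, fli1a, and tie1 the nearest values of the 2 genotypes had a ratio of 1.00, so that these groups were adjacent rather than apart. Their log2FC at 2 dpf was 0.14 (SE 0.09), 0.14 (SE 0.07), and 0.17 (SE 0.09). plvapa was lower in fbn2b-/- in the mean at both stages, by a log2FC of -1.26 (SE 0.63) at 1 dpf and -0.53 (SE 0.21) at 2 dpf, and its groups overlapped at both. The value at 1 dpf was -2.0 without fbn2b-/- replicate 3 and between -2.0 and -0.92 over all libraries left out in turn. At 2 dpf the value of plvapa was -0.17 within set A and -0.68 within set B. The pooled values of the paralogs plvapa and plvapb had opposite signs at 2 dpf. plvapb was chosen for its directions, so nothing is read from this contrast.

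Other genes of the vessel pathways were counted in 7 lists. Of 78 listed genes, 76 were tested, and from 1 to 2 dpf in WT 7 were called higher and 8 lower, or 19.7% beside 27.1% of all genes. In fbn2b-/- embryos 5 were higher and 11 lower, or 21.1% beside 27.7% of all genes. Over all genes, 17.7% were called higher in WT and 19.3% in fbn2b-/-. By FDR alone, 21 listed genes were higher and 26 lower in WT, and 23 and 29 in fbn2b-/-. Over all genes that rule gave 27.0% higher and 27.6% lower in WT, and 29.2% and 27.0% in fbn2b-/-. The directions were near even in WT, and the lists were chosen with earlier results known, so nothing is read from them. Between genotypes 0 were called at either stage (edgeR), beside 0.00425% of all genes at 1 dpf and 0.178% at 2 dpf. By FDR alone, 1 of all 23555 genes passed at 1 dpf and 55 at 2 dpf, so few calls were possible in the lists. Of the listed genes, stab1, a scavenger receptor gene singled out after its values were seen, alone passed the FDR threshold, at 2 dpf, with a log2FC of 0.54 (SE 0.10, FDR 0.0288) and 31.7 to 38.0 CPM in fbn2b-/- against 23.2 to 25.4 CPM in WT.

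The single lists are short, and their counts stand beside 27.1% of all genes called in WT (17.7% higher) and 54.6% by FDR alone. Nothing is read from the counts or directions of a single list. Among the 12 tested VEGF ligands and coreceptors, 0 were called between stages in WT, with 3 higher and 2 lower by FDR alone. In the angiopoietin and Tie list, angpt2a, an antagonist ligand of Tek, rose by 2.76 (SE 0.37, FDR 1.23e-05, edgeR) on the log2 scale in WT from a low level, and tek, the angiopoietin receptor, changed by -1.10 (SE 0.28, FDR 0.00317). Among 18 transcription factors 2 were called higher, gata2a (1.24) and klf2a (1.01), the latter a flow-responsive gene, and 2 lower, etv2 (-1.47), which starts endothelial fate in the embryo, and hhex (-1.08). In fbn2b-/- embryos gata2a (0.86), klf2a (0.62), and hhex (-0.88) passed the FDR threshold with a log2FC under the fold threshold, and etv2 was at -1.09.

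The surface and junction list had 2 of 21 genes called in WT (9.52%, beside 27.1% of all genes). They were the scavenger receptor gene stab2 (-1.32) and the tight junction gene cldn5a (-1.07). The arterial and Notch list had 2 of 10 (20.0%), the Notch ligand gene jag2b (-1.03) and the chemokine receptor gene cxcr4a (-1.11). All 4 were lower, and nothing is read from this direction. Of the 4 transporter genes used as markers of brain vessels, abcb4 (2.81) and slc16a1a (1.63) were higher and the glucose transporter gene slc2a1a (-3.06) was lower, and such transporters are also expressed outside vessels. Of 5 endocardial genes, id4 (2.08) and nfatc1 (1.26), a factor of valve formation, were higher. The libraries were of whole embryos, so the change of a listed gene cannot be placed in a cell type. All 15 genes named here from the WT stage comparison passed the FDR threshold in the same direction in fbn2b-/- embryos, where 56.3% of all genes passed it. They were picked for their low FDR in WT, so nothing is read from this count.

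Markers of other cell types were set beside the genotype comparison as summed levels. The erythroid, macrophage, neutrophil, neural crest, and smooth muscle and pericyte sums overlapped between genotypes at both stages, and 0 of their genes passed the FDR threshold. Of all 23555 genes tested, 1 passed it at 1 dpf and 55 at 2 dpf. At 2 dpf the macrophage sum was 29.4 to 38.1 CPM in WT and 35.4 to 45.2 CPM in fbn2b-/-, and the smooth muscle and pericyte sum 570 to 788 and 464 to 593 CPM. The sum of a thrombocyte list was 486 to 738 CPM in WT and 1040 to 1490 CPM in fbn2b-/- at 2 dpf, without overlap, and 4 of its 5 tested genes had positive log2FC. Nearly all of it came from fn1b, with 299 to 455 against 732 to 1150 CPM, and thbs1b, with 171 to 262 against 289 to 319 CPM, which encode matrix proteins that other tissues also make. The defining thrombocyte genes itga2b and mpl did not pass the filter on low counts, and the part of this list in the higher plvapb at 2 dpf was not tested.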

How the data were processed

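Pools of whole embryos were sequenced. The authors trimmed reads (Trim Galore 0.6.6), checked them (FastQC 0.11.9), aligned them to GRCz11 with STAR 2.7.6a, and counted them per gene with featureCounts of Subread 2.0.0, per the submitters' processing notes. The deposited table holds raw counts of reads, in whole numbers and not normalized. The annotation release, and how reads shared by paralogs such as kdr and kdrl or plvapa and plvapb were counted, are not given in the sources used here. Genes carry the names of the count table. Columns were matched to samples by library name. For 1 of the 16 samples, the 1 dpf WT replicate 3, no column carried the name, and 8 of the 23 count columns carried no sample's name and were left out.

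Total counts of the 15 libraries were between 41473603 and 179887580, and the p-values rest on the spread between pools. With edgeR 4.0.16 (R 4.3.3), genes were kept by filterByExpr (minimum count 10, minimum total 15), scaled with TMM, and fitted together by quasi-likelihood with 1 coefficient per group and with legacy set to FALSE. Benjamini-Hochberg adjustment ran over 23555 genes, and a gene was called at FDR under 0.05 and absolute log2FC above 1, the thresholds of the study. CPM used TMM library sizes, and log2 CPM a prior count of 2. Differences within library sets are of mean log2 CPM. Alternatives were DESeq2 1.42.0, limma-voom (limma 3.58.1), other scalings and filters, the library set (cut by library number, from earlier results of these data) or the replicate number as a term, and leaving out each library. The main edgeR fit was tested on simulated data, for the WT stage comparison only. Summaries used pandas 2.3.3 and numpy 2.4.6 under Python 3.11.15, permutations SciPy 1.17.1, and plots matplotlib 3.10.9.

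The 10 genes and the lists were chosen with earlier results of these data known. Named genes were all 10, the 2 with the lowest FDR in each direction among those called in each pathway list in the WT stage comparison, the 3 most like plvapb and cdh5, and fbn2b. No sequences are printed.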

Additional observations from a re-analysis of the deposited data

Results flagged for a closer look

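The level of flt4 in the fbn2b-/- libraries at 2 dpf held a library that stood apart from its group, replicate 1 at 19.6 CPM beside 21.1 to 21.6 CPM in the other 4. Of 20 combinations of a gene and a group of 4 or 5 libraries examined in this way, this was the only one found, and the limit used is a 95% critical value, which chance passes in about 1 in 20 groups. The library was at the low end of the levels at 2 dpf, the direction of the stage change. The genotype difference of plvapb at 2 dpf minus that at 1 dpf was 1.11 on the log2 scale, since every fbn2b-/- library was below every WT library at 1 dpf and above every WT library at 2 dpf. It stands out by these directions and not by a test: plvapb was chosen for this pattern, so no test of the difference is used.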

How the results depend on the processing

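The count of genes called from 1 to 2 dpf was 1 of 10 in WT and 2 in fbn2b-/-. It was 0 and 1 with a filter of 1 CPM in 3 libraries, which left plvapa untested, and 5 in either genotype with the FDR alone. Whether the replicate numbers pair the libraries is not known, and some same-numbered libraries were in different sets. Deviations of same-numbered libraries of the 2 genotypes correlated by 0.16 and 0.02 at 1 dpf and by -0.03, -0.16, and -0.11 at 2 dpf. Between the stages they correlated by 0.30 and -0.22 in WT and by 0.25, 0.14, and -0.11 in fbn2b-/-. Differently numbered libraries of the 2 genotypes correlated by -0.16 to 0.10 at 1 dpf and by -0.24 to 0.27 at 2 dpf. Between the stages, differently numbered libraries correlated by -0.31 to 0.39 in WT and by -0.16 to 0.17 in fbn2b-/-. With the replicate number as a block, 2 genes were called in WT, as kdrl reached -1.40 (FDR 0.00396, edgeR), while kdrl in fbn2b-/- was at 0.08, against -0.52 without the block. The interaction of genotype and stage had 0 calls, and 1 in DESeq2 and without fbn2b-/- replicate 1 at 1 dpf. That 1 was plvapb, which was chosen for this difference, so nothing is read from it. Leaving out each library in turn gave 1 to 1 calls in WT, 2 to 3 in fbn2b-/- (with kdr as the third when fbn2b-/- replicate 1 at 1 dpf was left out), 0 to 0 between genotypes at either stage, and 0 to 1 for the interaction. The 15 pathway genes called in WT became 47 with the FDR alone, and 12 to 16 with each library left out. The cause of these changes was not tested, beyond the fewer genes or criteria of the setting itself.

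Some values near 0 changed sign. In WT the stage value of fli1a was 0.03 with upper-quartile scaling, 0.05 without a filter, 0.00 with WT libraries alone, and from -0.09 to 0.02 with each library left out (0.02 without WT replicate 2 at 2 dpf). In fbn2b-/- that of cdh5 was 0.02 with upper-quartile scaling and from -0.08 to 0.00 with each library left out (0.00 without replicate 2 at 1 dpf). With each library left out, the change of the log2 ratio of kdr to kdrl ranged from -0.43 to 0.54 in WT and from -0.40 to 0.07 in fbn2b-/-, that of flt1 to kdrl from 0.33 to 1.2 and from 0.45 to 1.11, and that of flt4 to kdrl from -0.17 to 0.61 and from -0.14 to 0.40. Depth limits plvapa at 1 dpf, where 1 to 12 reads were counted per library. The numbers of libraries, 3 to 5 a group, limit the rest, and at 1 dpf fbn2b-/- libraries came from set A only.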
